A study of Mus musculus with 24 samples.

Results

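The genes of glycolysis were taken as 35 named genes, chosen by their symbols in the deposited tables, out of 26338 genes listed in either table. They comprised 4 transporters (Slc2a1 and Slc2a3 for glucose, Slc16a1 and Slc16a3 for lactate), the enzymes from hexokinase to lactate dehydrogenase, the regulators Pfkfb1, Pfkfb2, Pfkfb3, Pfkfb4 and Tigar, the pyruvate dehydrogenase subunits Pdha1 and Pdhb with their kinases Pdk1, Pdk2, Pdk3 and Pdk4, and Bnip3. All 35 were found in both tables, and all 35 held enough reads to be tested. RNA was sequenced from mouse embryonic stem cells (ESCs) and from expanded potential stem cells (EPSCs), which are ESCs moved into media reported to widen their developmental potential. The wild-type J1 line was profiled as ESCs, in serum and LIF with the inhibitors CHIR99021 and PD0325901, as D-EPSCs, in N2B27 medium with LIF, CHIR99021, dimethindene maleate and minocycline hydrochloride, and as L-EPSCs, in serum replacement with LIF, CHIR99021, PD0325901, A-419259, XAV939, JNK inhibitor VIII and SB203580. Per the study's methods, EPSCs were grown without feeders for several passages before RNA was taken, while ESCs are described on fibroblast feeders or on gelatin, without a statement of which was used for these libraries. The Oct4-cKO, Sox2-cKO and Nanog-cKO lines (ZHBTc4, 2TS22C and NgcKO, tet-off knock-in lines, 1 per factor) lack the endogenous gene and live on a transgene of it that doxycycline (Dox) shuts down. Each was profiled as ESC, as L-EPSC without Dox and as L-EPSC with Dox, and the time in Dox was not given for these libraries. The study's methods name no medium for the ESCs of these lines, so it may differ from that of J1 ESCs. Each of the 12 groups had 2 libraries, and whether these came from separate cultures was not stated, so the p-values measure the spread between libraries, which may be technical.

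Glycolysis splits glucose into pyruvate. Cells either reduce the pyruvate to lactate and export it or take it into the mitochondria, where pyruvate dehydrogenase acts on it. Most steps are served by several isozymes encoded by separate genes, and the pyruvate dehydrogenase kinases switch pyruvate dehydrogenase off. Pluripotent cells are known for a high glycolytic rate, and many glycolytic genes are known targets of the hypoxia-inducible factors (HIF) and of Myc.

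Values are read counts per gene divided by the library's DESeq2 size factor, called normalized counts here. A gene was called when its adjusted p in limma was below 0.05 and its log2 fold change exceeded 0.6 (between media) or 1 (with Dox) in size, and the share of all tested genes called in that direction is given beside the counts. The 6 J1 libraries held 11612919 to 15069899 reads on genes, and the 18 tet-off libraries held 10807631 to 14798984. J1 and the tet-off lines were deposited in separate tables that were normalized separately, so tests were made only within each. For members averaging 100 or more normalized counts in a group, the higher of the 2 libraries was less than 1.1 times the lower in 87.8% of 384 pairs. The targeted factors fell in the Dox libraries: Pou5f1 (Oct4) stood at 162 and 184 normalized counts in Oct4-cKO L-EPSCs with Dox against 6420.1 and 6316 without, Sox2 at 47.0 and 53.1 against 4966 and 4701 in the Sox2-cKO line, and Nanog at 3166 and 3112 against 9119 and 8847 in the Nanog-cKO line. The 12 fibroblast markers summed to 128681 and 131082 normalized counts in J1 ESCs, 83089 and 83278 in J1 D-EPSCs and 41041 and 41911 in J1 L-EPSCs, with 8 of 12 called lower in L-EPSCs against ESCs (against 11.5% of all genes). The macrophage markers summed to 2695 and 2699 in J1 ESCs, 20450.2 and 20546 in D-EPSCs and 16173 and 16266 in L-EPSCs, with 10 of 10 tested called higher in D-EPSCs against ESCs (against 10.8% of all genes) and 7 of 10 in L-EPSCs against ESCs (against 8.8%). In the tet-off lines the fibroblast markers summed to 19347 and 19834 in Oct4-cKO ESCs, 28712 and 28766 in their L-EPSCs without Dox and 5098 and 5597 with Dox. In the Sox2-cKO line these sums were 18542 and 18745 in ESCs, 30082 and 30244 without Dox and 10562 and 10642 with it, and in the Nanog-cKO line 16142 and 16634, then 17445 and 17604, then 26498 and 26729.9. Of the 10 tested there, the Oct4-cKO conversion called 4 higher (40%, against 13%) and 1 lower (10%, against 15.4%), and Dox in that line 3 higher (30%, against 8.53%) and 5 lower (50%, against 10.8%). At most 4 of these markers averaged 100 or more normalized counts in a tet-off group, the collagen Col3a1 had at most 2 reads in a library, and the macrophage markers summed to at most 796. Trophoblast markers summed to 36079 and 36854 in Oct4-cKO L-EPSCs with Dox against 6279 and 6427 without (9 of 12 called higher, against 8.53% of all genes), and to 16739 and 16835 against 3743 and 3849.9 in the Sox2-cKO line (10 of 12, against 7.79%). The part of other cell types in the results that follow was not tested. In RNA from whole cultures, fewer cells of a type and less RNA per cell cannot be told apart.

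The 35 genes together took a larger share of reads in L-EPSCs than in ESCs of the same line, in J1 and in all 3 tet-off lines. They held 1.21% and 1.21% of gene reads in the J1 ESC libraries, 1.10% and 1.10% in D-EPSCs and 1.55% and 1.56% in L-EPSCs. In the Oct4-cKO line the share was 2.13% and 2.12% in ESCs, 3.06% and 3.06% in L-EPSCs without Dox and 2.15% and 2.15% with Dox. Sox2-cKO libraries held 2.05% and 2.06% as ESCs, 2.62% and 2.61% as L-EPSCs without Dox and 2.20% and 2.20% with it. Nanog-cKO libraries held 2.08% and 2.12% as ESCs, 2.99% and 3.00% as L-EPSCs without Dox and 2.27% and 2.20% with it. The L-EPSC libraries without Dox thus held the largest share in each line. In all 9 comparisons the libraries of the groups did not overlap: the share was higher in 5 (L-EPSCs against J1 ESCs, against D-EPSCs, and in the 3 tet-off conversions) and lower in 4 (D-EPSCs against ESCs, and Dox in each line). The directions were the same when Gapdh, Aldoa, Pkm or Eno1 was left out. With 2 libraries against 2 an exact permutation test cannot go below p = 0.333, so the shares are given without a test.

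**Figure D1:**
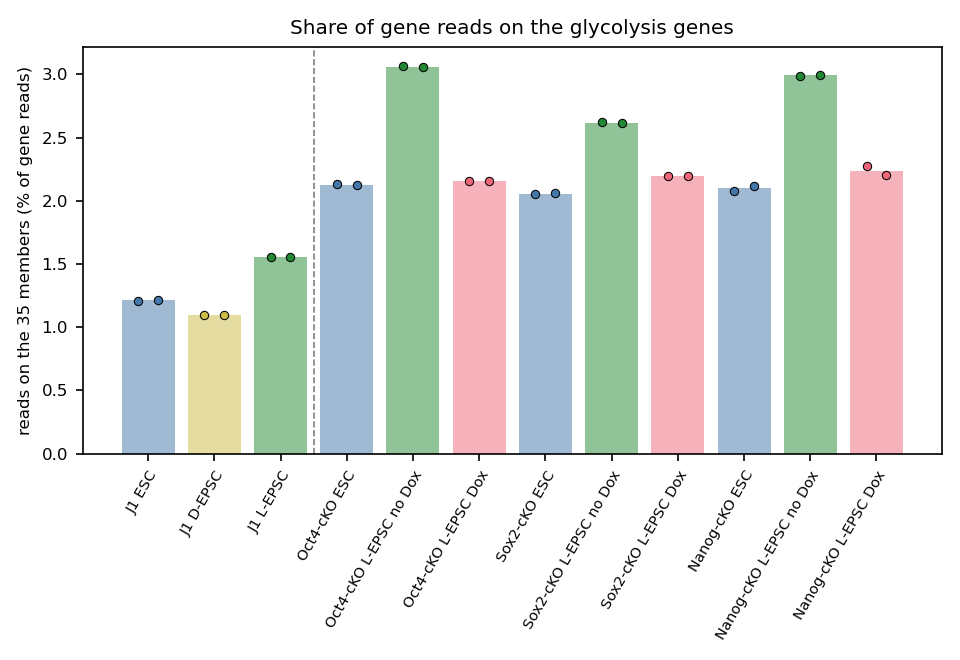
Share of all gene reads that fell on the 35 glycolysis genes, in percent, for the 12 groups. Bars give the mean and points the 2 libraries of each group, and the dashed line separates the J1 table from the tet-off table. L-EPSCs without Dox stand above the ESCs of their line, and L-EPSCs with Dox lie near the ESCs, at 2.15% to 2.24% on average.

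**Figure D2:**
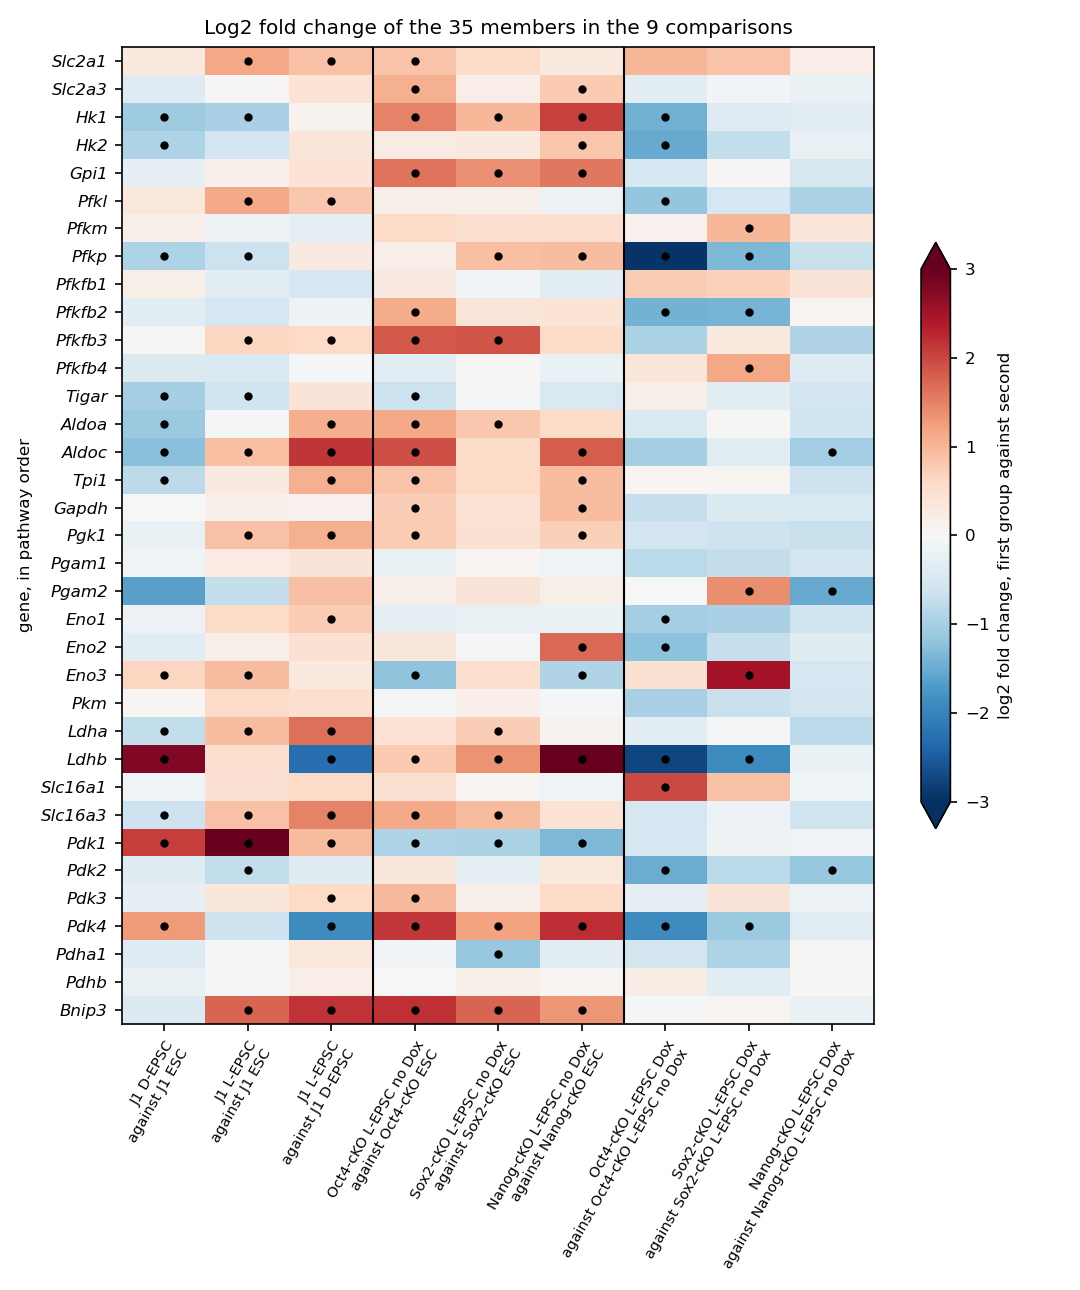
Log2 fold change of each of the 35 genes (rows, in pathway order) in the 9 comparisons (columns, first group against second), with red for higher and blue for lower in the first group. Dots mark called genes, and vertical lines separate the J1 media, the conversion of tet-off lines and Dox. Rows such as Pdk1 and Hk1 change colour between J1 and the tet-off lines, and the Dox columns are mostly blue.

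In J1 cells, the move from ESC to L-EPSC medium raised genes at the glucose transporter, phosphofructokinase, phosphoglycerate kinase, lactate dehydrogenase and lactate export steps, and Bnip3 and Pdk1 most of all. Of the 35 genes, 10 were higher (28.6%, against 8.8% of all genes tested) and 4 lower (11.4%, against 11.5%), with a median log2 fold change of 0.16. Pdk1, a kinase that inactivates pyruvate dehydrogenase, had 613 and 529 normalized counts in ESCs against 4603 and 4790.1 in L-EPSCs (log2 fold change 3.04 ± 0.066 (SE), limma adjusted p = 6.07e-08). Bnip3, a mitochondrial protein that promotes removal of mitochondria, had 349.6 and 344 in ESCs against 1174 and 1163 in L-EPSCs (log2 fold change 1.75 ± 0.060 (SE), limma adjusted p = 4.72e-07). Both genes were more than 3 times as abundant in either L-EPSC library as in either ESC library.

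The glucose transporter Slc2a1 was 2.24-fold higher in L-EPSCs (5277 and 5272 against 2389 and 2322; log2 fold change 1.16 ± 0.032 (SE), limma adjusted p = 1.91e-07), whereas Slc2a3, the more read-rich transporter, had 10742 and 10717 against 10491 and 10559 (log2 fold change 0.028 ± 0.019 (SE), limma adjusted p = 0.305). Pfkl, the liver-type subunit of phosphofructokinase, was 2.19-fold higher (3346 and 3358 against 1527 and 1532; log2 fold change 1.13 ± 0.031 (SE), limma adjusted p = 1.85e-07), and Pfkp, the platelet-type subunit, was 1.57-fold lower (2979 and 3031 against 4639.6 and 4769; log2 fold change -0.65 ± 0.029 (SE), limma adjusted p = 1.76e-06). The subunits of this committed step thus moved in opposite directions, with Pfkm, the muscle type, uncalled at a log2 fold change of -0.14. Ldha, which reduces pyruvate to lactate, had 15187 and 15656 in L-EPSCs against 8127 and 8155 in ESCs (log2 fold change 0.92 ± 0.025 (SE), limma adjusted p = 1.78e-07). Slc16a3, which exports lactate, had 1339.6 and 1255 against 721 and 700.0 (log2 fold change 0.87 ± 0.063 (SE), limma adjusted p = 2.17e-05). Pgk1, which makes ATP at the phosphoglycerate kinase step, had 7078 and 6907 against 3841 and 3753 (log2 fold change 0.88 ± 0.027 (SE), limma adjusted p = 3.24e-07).

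The other genes called in this comparison had lower counts. Eno3, the muscle enolase, rose from 124 and 136 to 249 and 246 (log2 fold change 0.93 ± 0.11 (SE), limma adjusted p = 3.20e-04), Aldoc, the brain aldolase, from 198 and 167 to 328 and 352 (log2 fold change 0.90 ± 0.13 (SE), limma adjusted p = 9.96e-04), and Pfkfb3, which makes the sugar phosphate that activates phosphofructokinase, from 294 and 294 to 464 and 451 (log2 fold change 0.63 ± 0.071 (SE), limma adjusted p = 2.33e-04). Hk1, the hexokinase that traps glucose in many adult tissues, fell from 2484 and 2401 to 1196 and 1289 (log2 fold change -0.98 ± 0.046 (SE), limma adjusted p = 2.39e-06), and Tigar, which opposes Pfkfb3, from 1272 and 1258 to 834 and 825 (log2 fold change -0.61 ± 0.045 (SE), limma adjusted p = 2.39e-05; uncalled at -0.587 when libraries were centred on their medians). Pdk2 was called lower at 48.3 and 71.3 against 108 and 89.5 normalized counts (log2 fold change -0.73 ± 0.24 (SE), limma adjusted p = 0.0451), and it lost the call whenever any J1 ESC or L-EPSC library was left out (limma adjusted p between 0.0628 and 0.301). Hk2 had 2999 and 2909.9 against 4329 and 4484 (log2 fold change -0.58 ± 0.032 (SE), limma adjusted p = 5.44e-06) and was just short of the threshold. Of the genes at the largest counts, Gapdh (0.14), Pkm (0.56), Eno1 (0.58) and Aldoa (-0.024) were uncalled (log2 fold changes).

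The promoters of 4 genes that rose in J1 L-EPSCs are shown because they hold ACGTG, the core of the hypoxia response element. Those of Pdk1 and Ldhb are shown as windows without it. Pdk1 was called higher in J1 L-EPSCs than in ESCs. Ldhb was not called there, but was called higher in J1 D-EPSCs and in the tet-off conversions. Sequences are RefSeq promoters of build GRCm38.p6, 250 bases before to 50 after a start site, 5′ to 3′ on the gene's strand, with ACGTG on either strand in capitals. The capitals CACGTG are the E-box, which reads the same on both strands and holds ACGTG.
Ldha (chr7:46845554-46845853, plus strand): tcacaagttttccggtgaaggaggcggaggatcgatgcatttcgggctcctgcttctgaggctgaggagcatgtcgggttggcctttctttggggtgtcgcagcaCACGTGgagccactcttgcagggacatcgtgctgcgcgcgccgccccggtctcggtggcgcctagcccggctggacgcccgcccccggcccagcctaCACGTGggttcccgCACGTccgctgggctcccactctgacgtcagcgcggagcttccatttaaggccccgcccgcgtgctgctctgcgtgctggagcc
Bnip3 (chr7:138909457-138909756, minus strand): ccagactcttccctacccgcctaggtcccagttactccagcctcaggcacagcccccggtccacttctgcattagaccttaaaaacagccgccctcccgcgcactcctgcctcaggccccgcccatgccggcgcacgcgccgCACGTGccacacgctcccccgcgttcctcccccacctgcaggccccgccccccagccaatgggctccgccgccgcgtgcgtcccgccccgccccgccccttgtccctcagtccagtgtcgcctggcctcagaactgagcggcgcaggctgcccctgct
Slc16a3 (chr11:120948817-120949116, plus strand): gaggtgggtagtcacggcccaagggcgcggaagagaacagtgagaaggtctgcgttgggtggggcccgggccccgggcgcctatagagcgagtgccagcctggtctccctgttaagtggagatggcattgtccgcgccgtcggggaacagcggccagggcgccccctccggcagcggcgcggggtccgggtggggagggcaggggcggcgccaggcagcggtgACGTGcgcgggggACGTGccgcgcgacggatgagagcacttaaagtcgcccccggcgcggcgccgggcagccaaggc
Pgk1 (chrX:106186850-106187149, plus strand): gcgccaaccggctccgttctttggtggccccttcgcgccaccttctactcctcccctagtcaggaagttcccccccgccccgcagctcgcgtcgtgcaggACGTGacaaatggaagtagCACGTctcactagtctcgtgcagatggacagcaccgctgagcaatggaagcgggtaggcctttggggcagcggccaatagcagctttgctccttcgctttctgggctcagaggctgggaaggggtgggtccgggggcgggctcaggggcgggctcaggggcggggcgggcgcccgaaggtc
Pdk1 (chr2:71872974-71873273, plus strand): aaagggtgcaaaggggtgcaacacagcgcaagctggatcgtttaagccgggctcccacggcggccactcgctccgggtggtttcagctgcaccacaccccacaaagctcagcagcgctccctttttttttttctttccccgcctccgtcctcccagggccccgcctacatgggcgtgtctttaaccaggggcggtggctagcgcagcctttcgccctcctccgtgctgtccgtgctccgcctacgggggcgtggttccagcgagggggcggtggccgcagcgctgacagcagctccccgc
Ldhb (chr6:142507908-142508207, minus strand): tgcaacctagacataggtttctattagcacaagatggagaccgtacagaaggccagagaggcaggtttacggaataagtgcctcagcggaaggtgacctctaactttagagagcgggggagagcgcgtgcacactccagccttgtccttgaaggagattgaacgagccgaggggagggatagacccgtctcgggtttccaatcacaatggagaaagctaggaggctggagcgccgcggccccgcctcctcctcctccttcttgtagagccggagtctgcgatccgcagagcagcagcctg

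The Ldha window held 2 E-boxes and 1 further ACGTG, and the Bnip3 window 1 E-box. The promoter table matched 34 of the 35 genes (all but Slc2a3) with 53 windows. At least 1 window held ACGTG in 19 of these genes (55.9%), beside 21.8% of all 27025 genes in the table and 31.2% of the 7540 genes averaging 100 or more normalized counts in both data tables. Such a share grows with the number of windows per gene, which was larger for the members. Counted per window, ACGTG occurred in 43.4% of the members' windows, 19.6% of all windows and 26.8% of those of the abundant genes. CACGTG occurred in 7 (20.6%), beside 8.09% of all genes. The median GC content was 60.7% in the members' windows, 52.7% in all windows and 61.7% in those of the abundant genes. Of the 10 genes called higher in J1 L-EPSCs than in ESCs, 7 held ACGTG, as did 2 of the 4 called lower. A match describes letters in these windows only.

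In D-EPSC medium, more J1 glycolysis genes were lower than higher: 9 of the 35 genes were lower than in ESCs (25.7%, against 9.98% of all genes) and 4 higher (11.4%, against 10.8%), with a median log2 fold change of -0.26 and 24 of 35 values below 0. All genes averaging at least 10 normalized counts had median log2 counts of 8.37 and 8.37 in D-EPSCs against 8.37 and 8.38 in ESCs. Aldoa, the main aldolase, was 2.15-fold lower (9012 and 8971 against 19235 and 19402 normalized counts; log2 fold change -1.10 ± 0.017 (SE), limma adjusted p = 1.22e-08). Aldoc was 2.38-fold lower (71.5 and 80.3 against 198 and 167; log2 fold change -1.25 ± 0.13 (SE), limma adjusted p = 1.68e-04). Tpi1, the triose phosphate isomerase, was 1.72-fold lower (2368 and 2312 against 4056 and 3986; log2 fold change -0.78 ± 0.030 (SE), limma adjusted p = 6.95e-07). The aldolase and isomerase steps, which follow each other in the pathway, were lower in both D-EPSC libraries than in both ESC libraries.

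The lactate dehydrogenase subunits moved in opposite directions in D-EPSCs. Ldhb, the heart-type subunit, had 3210.4 and 3285 normalized counts in D-EPSCs against 486 and 464 in ESCs (log2 fold change 2.77 ± 0.053 (SE), limma adjusted p = 3.41e-08), a level 6.83-fold higher. Ldha had 4843 and 4992 against 8127 and 8155 (log2 fold change -0.73 ± 0.025 (SE), limma adjusted p = 4.26e-07). Pdk1 and Pdk4 were also higher in D-EPSCs, Pdk1 at 2452 and 2377 against 613 and 529 (log2 fold change 2.08 ± 0.066 (SE), limma adjusted p = 2.83e-07) and Pdk4 at 159 and 147 against 62.0 and 63.6 (log2 fold change 1.27 ± 0.21 (SE), limma adjusted p = 0.00214). The Pdk4 call was lost, with a log2 fold change of 1.21 to 1.33, whenever any D-EPSC or ESC library was left out. Of their set, Pdk2 (-0.37) and Pdk3 (-0.26) were uncalled.

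Both hexokinases were lower in D-EPSCs, Hk1 at 1159 and 1158 (log2 fold change -1.07 ± 0.046 (SE), limma adjusted p = 1.38e-06) and Hk2 at 2320.0 and 2281 against 4329 and 4484 (log2 fold change -0.94 ± 0.032 (SE), limma adjusted p = 4.46e-07). Pfkp fell to 2463 and 2489 (log2 fold change -0.93 ± 0.029 (SE), limma adjusted p = 2.78e-07) and Tigar to 629 and 629 (log2 fold change -1.01 ± 0.045 (SE), limma adjusted p = 1.62e-06). Eno3 at 193 and 213 (log2 fold change 0.64 ± 0.11 (SE), limma adjusted p = 0.00237) and Slc16a3 at 479.9 and 441 (log2 fold change -0.63 ± 0.063 (SE), limma adjusted p = 1.33e-04) lay close to the threshold, and the first lost its call without D-EPSC replicate 2 (0.570) or ESC replicate 1 (0.579), the second without D-EPSC replicate 2 (-0.565). Bnip3 had 260.4 and 260.4 (log2 fold change -0.41 ± 0.060 (SE), limma adjusted p = 9.95e-04), below the ESC libraries but not called. Gapdh stood at 37676 and 37064 against 37275 and 37264 (log2 fold change 0.0038 ± 0.014 (SE), limma adjusted p = 0.870).

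Set against each other, L-EPSCs held more of this pathway's RNA than D-EPSCs: 13 of 35 genes were higher in L-EPSCs (37.1%, against 4.8% of all genes) and 2 lower (5.71%, against 8.58%), with a median log2 fold change of 0.41. This comparison shares its libraries with the other J1 comparisons and is no separate evidence for them. Bnip3 (log2 fold change 2.16 ± 0.060 (SE), limma adjusted p = 4.56e-07), Aldoc (log2 fold change 2.15 ± 0.13 (SE), limma adjusted p = 1.84e-05) and Ldha (log2 fold change 1.65 ± 0.025 (SE), limma adjusted p = 4.67e-08) differed most in the upward direction. Slc16a3 (log2 fold change 1.49 ± 0.063 (SE), limma adjusted p = 2.65e-06), Aldoa (log2 fold change 1.08 ± 0.017 (SE), limma adjusted p = 4.67e-08), Pgk1 (log2 fold change 1.08 ± 0.027 (SE), limma adjusted p = 3.97e-07) and Tpi1 (log2 fold change 1.07 ± 0.030 (SE), limma adjusted p = 4.56e-07) followed. Pdk1 was higher too (log2 fold change 0.96 ± 0.066 (SE), limma adjusted p = 3.24e-05). Slc2a1 (0.87), Pfkl (0.81), Eno1 (0.76), Pdk3 (0.61) and Pfkfb3 (0.60) were called as well on the log2 scale, the last pair just past the threshold. Without L-EPSC replicate 1 both were uncalled (0.543 and 0.583), as were Pdk3 without D-EPSC replicate 1 (0.524) and Pfkfb3 without D-EPSC replicate 2 (0.595). Ldhb (log2 fold change -2.26 ± 0.053 (SE), limma adjusted p = 2.64e-07) and Pdk4 (log2 fold change -1.89 ± 0.21 (SE), limma adjusted p = 4.06e-04) were the genes called lower.

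Conversion of the tet-off ESCs to L-EPSCs raised Hk1, Gpi1, Ldhb, Pdk4 and Bnip3 in all 3 lines, and lowered Pdk1 in all 3. The share of all genes called in the same direction in all 3 lines was not computed. In the Oct4-cKO line 16 of 35 genes were higher (45.7%, against 13% of all genes and 20% of those averaging 100 or more normalized counts) and 3 lower (8.57%, against 15.4%). In the Sox2-cKO line 10 were higher (28.6%, against 7.99%) and 2 lower (5.71%, against 11.6%). In the Nanog-cKO line 13 were higher (37.1%, against 12.2%, and 18.8% of the abundant genes) and 2 lower (5.71%, against 14.7%). The median log2 fold change of the 35 genes was 0.46, 0.40 and 0.44. Markers of cell states moved with conversion too. Of 10 primitive endoderm markers, it called 6, 3 and 5 higher and 1, 5 and 2 lower in the Oct4-cKO, Sox2-cKO and Nanog-cKO lines, and their sum went from 9319.7 and 9493 to 20659 and 20707, from 8887 and 9112 to 13279.5 and 13429 and from 4910.2 and 4966 to 5131 and 5147 normalized counts. Of 12 trophoblast markers, 7 were called higher in the Oct4-cKO line, 5 lower in Sox2-cKO, and 4 higher and 2 lower in Nanog-cKO, and of 10 pluripotent cell markers 6, 3 and 8 were called lower in the 3 lines in that order. Their part in the results was not tested.

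Gpi1, which isomerizes glucose phosphate, had 7051 and 7153 normalized counts in Oct4-cKO ESCs against 22107 and 21576 in L-EPSCs (log2 fold change 1.62 ± 0.025 (SE), limma adjusted p = 6.88e-17), 7058 and 7286 against 18384 and 18525 in the Sox2-cKO line (log2 fold change 1.36 ± 0.025 (SE), limma adjusted p = 1.87e-15), and 7253 and 7514 against 22222 and 21686 in the Nanog-cKO line (log2 fold change 1.57 ± 0.025 (SE), limma adjusted p = 1.21e-16). The differences between lines in its rise were at most 0.26 on the log2 scale and were not called. Hk1 rose from 1729 and 1885 to 5009 and 5103 in the Oct4-cKO line (log2 fold change 1.48 ± 0.042 (SE), limma adjusted p = 7.14e-14), from 2119 and 2194 to 4275 and 4393 in the Sox2-cKO line (log2 fold change 1.01 ± 0.042 (SE), limma adjusted p = 1.78e-11) and from 1318 and 1354 to 5591 and 5530.1 in the Nanog-cKO line (log2 fold change 2.06 ± 0.042 (SE), limma adjusted p = 1.34e-15). Hk2 was called in the Nanog-cKO line alone (3152 and 3123 to 5669 and 5580.0; log2 fold change 0.84 ± 0.032 (SE), limma adjusted p = 2.18e-12) and stood at 0.24 and 0.30 on the log2 scale in the others.

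Ldhb had the largest differences between the lines. It rose from 1051 and 1075 to 13367 and 13089 in the Nanog-cKO line, 12.4-fold higher (log2 fold change 3.64 ± 0.030 (SE), limma adjusted p = 1.90e-20), from 3867 and 3916 to 9793 and 9916 in the Sox2-cKO line (log2 fold change 1.34 ± 0.030 (SE), limma adjusted p = 1.42e-14) and from 3614 and 3569 to 6078 and 6353 in the Oct4-cKO line (log2 fold change 0.79 ± 0.030 (SE), limma adjusted p = 2.01e-12). The Nanog-cKO ESCs started lowest and their L-EPSCs ended highest. Ldha was called in the Sox2-cKO line (10680.2 and 11309 to 18269 and 18104; log2 fold change 0.73 ± 0.030 (SE), limma adjusted p = 1.85e-11), with 0.43 and 0.11 on the log2 scale in the other lines.

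Among the pyruvate dehydrogenase kinases, Pdk1 and Pdk4 moved in opposite directions. Pdk1 fell from 2541 and 2609 to 1363 and 1327 in the Oct4-cKO line (log2 fold change -0.94 ± 0.048 (SE), limma adjusted p = 7.47e-11), from 2225 and 2252 to 1121 and 1199 in the Sox2-cKO line (log2 fold change -0.95 ± 0.048 (SE), limma adjusted p = 1.57e-10) and from 2745 and 2853 to 1098 and 1097 in the Nanog-cKO line (log2 fold change -1.35 ± 0.048 (SE), limma adjusted p = 1.02e-12). Pdk4 rose from 119 and 107 to 468 and 517 (log2 fold change 2.11 ± 0.12 (SE), limma adjusted p = 3.02e-10), from 157 and 139 to 307 and 379 (log2 fold change 1.20 ± 0.12 (SE), limma adjusted p = 5.70e-07) and from 79.5 and 69.5 to 332 and 361 (log2 fold change 2.21 ± 0.12 (SE), limma adjusted p = 1.96e-10) in the same order. Pdk3 was called in the Oct4-cKO line (289.6 and 258 to 554 and 527; log2 fold change 0.98 ± 0.075 (SE), limma adjusted p = 1.17e-08), and Pdk2 lay between -0.26 and 0.35 on the log2 scale and was called in none of the 3. Pdha1, the catalytic subunit of pyruvate dehydrogenase, stood at 9420.3 and 9134 in Sox2-cKO ESCs against 3242 and 3112 in Oct4-cKO ESCs and 3228 and 3216 in Nanog-cKO ESCs, and it fell to 4267 and 4177 in Sox2-cKO L-EPSCs (log2 fold change -1.14 ± 0.030 (SE), limma adjusted p = 8.77e-14).

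Bnip3 rose from 823 and 819 to 3799.7 and 3764 in the Oct4-cKO line (log2 fold change 2.20 ± 0.053 (SE), limma adjusted p = 1.15e-14), from 869 and 754 to 2734 and 2723 in the Sox2-cKO line (log2 fold change 1.75 ± 0.053 (SE), limma adjusted p = 5.00e-13) and from 909 and 944 to 2348 and 2329.7 in the Nanog-cKO line (log2 fold change 1.34 ± 0.053 (SE), limma adjusted p = 4.55e-12). The L-EPSC libraries lay above the ESC libraries without overlap in each line.

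The remaining calls came in 1 or 2 of the lines. Aldoc rose from 217 and 191 to 789.8 and 783 in the Oct4-cKO line (log2 fold change 1.94 ± 0.080 (SE), limma adjusted p = 5.78e-12) and from 305 and 314 to 1053 and 1119 in the Nanog-cKO line (log2 fold change 1.81 ± 0.080 (SE), limma adjusted p = 1.63e-11). Aldoa rose in the Oct4-cKO line from 23108 and 22856 to 50346 and 50113 (log2 fold change 1.13 ± 0.023 (SE), limma adjusted p = 2.11e-15) and in the Sox2-cKO line (0.81 on the log2 scale). Aldoa held far more reads than Aldoc in every library. Tpi1 (0.87 and 0.93), Gapdh (0.73 and 0.93), Pgk1 (0.76 and 0.72) and Slc2a3 (1.06 and 0.78) rose in the Oct4-cKO and Nanog-cKO lines by these log2 fold changes. In the Nanog-cKO line this was 5810.2 and 6208 to 11596 and 11363 for Tpi1 and 46662 and 48825 to 89958 and 91809.9 for Gapdh, the enzyme that makes NADH.

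Pfkfb3 rose from 350.3 and 272 to 1088 and 1108 in the Oct4-cKO line (log2 fold change 1.83 ± 0.12 (SE), limma adjusted p = 2.91e-09) and from 215 and 227 to 810.2 and 837 in the Sox2-cKO line (log2 fold change 1.89 ± 0.12 (SE), limma adjusted p = 4.08e-09). Slc16a3 rose in the same lines, from 1299 and 1268 to 2761 and 2891 (log2 fold change 1.14 ± 0.049 (SE), limma adjusted p = 1.01e-11) and from 884 and 864 to 1784 and 1598 (log2 fold change 0.95 ± 0.049 (SE), limma adjusted p = 2.31e-10). The phosphofructokinase regulator and the lactate exporter were thus called together, in both lines, while Pfkp was called in the Sox2-cKO line (3729 and 3589 to 6932 and 6836; log2 fold change 0.91 ± 0.032 (SE), limma adjusted p = 3.14e-12) and the Nanog-cKO line (0.92 on the log2 scale). Pfkfb2 rose in the Oct4-cKO line from 295 and 217 to 548 and 544 (log2 fold change 1.11 ± 0.13 (SE), limma adjusted p = 1.71e-06), where Slc2a1 (0.85) was also higher and Tigar (-0.64) lower. Eno2, the neuronal enolase, rose in the Nanog-cKO line from 202 and 225 to 696 and 694 (log2 fold change 1.70 ± 0.089 (SE), limma adjusted p = 1.21e-10). Eno3 fell from 179.8 and 140.2 to 59.5 and 78.2 in the Oct4-cKO line (log2 fold change -1.21 ± 0.16 (SE), limma adjusted p = 7.23e-06) and by 0.90 on the log2 scale in the Nanog-cKO line, and the first of these had an adjusted p of 0.0508 in limma when only its groups were fitted.

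**Figure D3:**
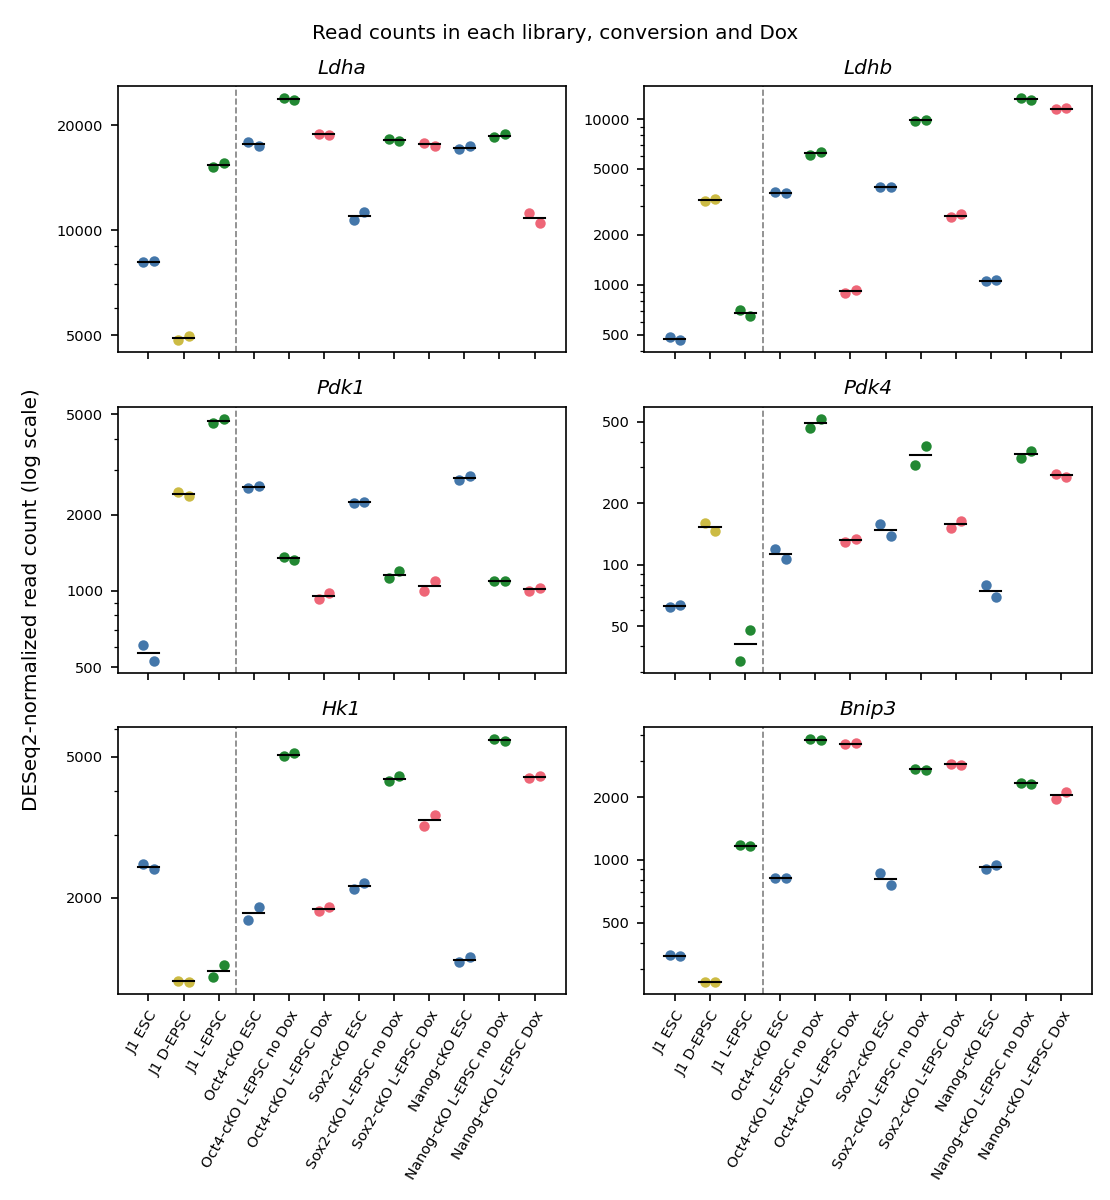
Normalized read counts (log scale) of Ldha, Ldhb, Pdk1, Pdk4, Hk1 and Bnip3 in all 24 libraries, as points coloured by state (ESC blue, D-EPSC yellow, L-EPSC without Dox green, with Dox red), with a black bar at the mean of the 2 libraries; the dashed line separates the separately normalized J1 and tet-off tables. Pdk1 is higher in L-EPSCs than ESCs in J1 and lower in each tet-off line, Hk1 shows the reverse, and Bnip3 is higher in the L-EPSCs of every line.

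The differences of Pdk1 and Hk1 between L-EPSCs and ESCs had opposite directions in J1 and in the tet-off lines. Pdk1 was 8.23-fold higher in J1 L-EPSCs than in J1 ESCs, and 1.91-fold lower, 1.93-fold lower and 2.55-fold lower in the L-EPSCs of the Oct4-cKO, Sox2-cKO and Nanog-cKO lines than in their ESCs. Hk1 was 1.97-fold lower in J1 and 2.80-fold higher, 2.01-fold higher and 4.16-fold higher in the tet-off lines. Every L-EPSC library lay on the stated side of every ESC library of its line. The difference between J1 and the tet-off lines was not tested, because the tables were normalized separately, and fibroblast and macrophage markers moved between the J1 groups. Pfkp was also called lower in J1 (-0.65) and higher in the Sox2-cKO and Nanog-cKO lines (0.91 and 0.92), and Eno3 was called higher in J1 (0.93) and lower in the Oct4-cKO and Nanog-cKO lines (-1.21 and -0.90), with 0.50 and no call in the Sox2-cKO line. Other genes were called in the same direction. Bnip3 (1.75 in J1), Slc16a3 (0.87), Slc2a1, Pgk1, Aldoc, Pfkfb3 and Ldha were called higher in J1 and, where called, in the tet-off conversions. Tigar was called lower in J1 and in the Oct4-cKO line.

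Dox in Oct4-cKO L-EPSCs lowered genes at several steps of the pathway and raised the lactate transporter Slc16a1. Each Dox comparison shares its libraries without Dox with the conversion of the same line. With Dox, 10 of 35 genes were lower in Oct4-cKO L-EPSCs (28.6%, against 10.8% of all genes) and 1 higher (2.86%, against 8.53%), with a median log2 fold change of -0.50 and 26 of 35 values below 0. Genes averaging at least 10 normalized counts had median log2 counts of 8.23 and 8.23 in the Dox libraries against 8.16 and 8.16 without. Pfkp had 6252 and 6266 normalized counts without Dox and 833 and 793 with it, 7.70-fold lower (log2 fold change -2.94 ± 0.032 (SE), limma adjusted p = 4.38e-19). Ldhb had 6078 and 6353 without and 899 and 927 with Dox, 6.80-fold lower (log2 fold change -2.77 ± 0.030 (SE), limma adjusted p = 3.86e-19). Slc16a1, which carries lactate and pyruvate across the membrane, had 2014 and 2002 without and 7934 and 7943 with Dox (log2 fold change 1.98 ± 0.050 (SE), limma adjusted p = 1.25e-14). Both Dox libraries lay outside the range of the other libraries of the line for these 3 genes.

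Pdk4 fell from 468 and 517 to 129 and 134 (log2 fold change -1.89 ± 0.12 (SE), limma adjusted p = 1.10e-09), Pdk2 from 164 and 176 to 50.7 and 71.0 (log2 fold change -1.49 ± 0.18 (SE), limma adjusted p = 3.39e-06) and Pfkfb2 from 548 and 544 to 183 and 224 (log2 fold change -1.43 ± 0.13 (SE), limma adjusted p = 8.61e-08). Both hexokinases fell, Hk2 from 7419 and 7109.9 to 2489.7 and 2577 (log2 fold change -1.52 ± 0.032 (SE), limma adjusted p = 9.48e-16) and Hk1 from 5009 and 5103 to 1837 and 1885 (log2 fold change -1.44 ± 0.042 (SE), limma adjusted p = 6.18e-14). Eno2 fell from 199 and 193 to 84.1 and 81.0 (log2 fold change -1.24 ± 0.089 (SE), limma adjusted p = 5.59e-09) and Pfkl from 5615 and 5414 to 2361 and 2603 (log2 fold change -1.15 ± 0.043 (SE), limma adjusted p = 1.29e-12). Eno1, the main enolase, went from 21956 and 21882 to 10772 and 10775 (log2 fold change -1.02 ± 0.020 (SE), limma adjusted p = 3.35e-16). Slc2a1 went from 13397 and 13309.9 to 26566 and 26486 and missed the threshold by its size (log2 fold change 0.99 ± 0.030 (SE), limma adjusted p = 1.03e-13). Pkm (-0.98) lay just under the threshold in the other direction, while Ldha (-0.34), Aldoa (-0.47), Tpi1 (0.061) and Bnip3 (-0.062) were further from it on the log2 scale.

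Dox in Sox2-cKO L-EPSCs raised Eno3 and Pgam2 and lowered Ldhb, Pfkp, Pfkfb2 and Pdk4. With Dox, 4 of 35 genes were higher in Sox2-cKO L-EPSCs (11.4%, against 7.79% of all genes) and 4 lower (11.4%, against 7.32%), with a median log2 fold change of -0.31 and 22 of 35 values below 0. Median log2 counts of genes averaging at least 10 normalized counts were 8.25 and 8.25 with Dox against 8.18 and 8.18 without. The other genes called higher, Pfkm and Pfkfb4, each lost the call under some alternatives. Eno3 had 180.4 and 185 normalized counts without Dox and 1029 and 1054 with it, 5.68-fold higher (log2 fold change 2.51 ± 0.16 (SE), limma adjusted p = 1.53e-09). No other library of the series held more than 249 normalized counts of Eno3. Pgam2, the muscle phosphoglycerate mutase, rose from 40.0 and 41.9 to 115 and 105 (log2 fold change 1.40 ± 0.30 (SE), limma adjusted p = 0.00113). Pfkm, the muscle phosphofructokinase, went from 1073 and 1092 to 2245 and 2097 (log2 fold change 1.00 ± 0.053 (SE), limma adjusted p = 1.97e-10), at the threshold itself. It was under the threshold by edgeR (0.996), with TMM scaling (0.995) or median centring (0.936), and without replicate 1 of either group (0.953 and 0.990). Eno3, Pgam2 and Pfkm are known from muscle. Of the 8 muscle markers, 2 were called higher (25%, against 7.79%), and Myod1 had no reads with Dox. Their sum was 805 and 846 normalized counts with Dox and 419 and 425 without. It was larger in Oct4-cKO ESCs (1362 and 1379) and Nanog-cKO ESCs (1152 and 1242).

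Pfkfb4 was called higher at 117 and 144 against 73.5 and 44.9 (log2 fold change 1.16 ± 0.30 (SE), limma adjusted p = 0.00529), but not when only its groups were fitted (limma adjusted p = 0.116) or without replicate 2 of either group (limma adjusted p = 0.0728 and 0.103). Ldhb fell from 9793 and 9916 to 2578 and 2662 (log2 fold change -1.91 ± 0.030 (SE), limma adjusted p = 8.87e-17), Pfkp from 6932 and 6836 to 2729 and 2643 (log2 fold change -1.36 ± 0.032 (SE), limma adjusted p = 9.92e-15), Pfkfb2 from 681 and 675 to 269.8 and 243 (log2 fold change -1.40 ± 0.13 (SE), limma adjusted p = 1.37e-07) and Pdk4 from 307 and 379 to 151 and 164 (log2 fold change -1.11 ± 0.12 (SE), limma adjusted p = 1.03e-06; -0.957 and uncalled without replicate 2 of the group without Dox). These 4 genes were also called lower after Oct4 loss. On the log2 scale, Eno1 (-0.97), Eno2 (-0.68), Pgam1 (-0.72), Pfkl (-0.54), Pfkfb1 (0.70), Pfkfb3 (0.29), Ldha (-0.044), Pdk1 (-0.15), Pdk2 (-0.82) and Pdk3 (0.40) were uncalled.

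Reduction of Nanog called few genes, although most values leaned one way. With Dox, 3 of 35 genes were lower in Nanog-cKO L-EPSCs (8.57%, against 2.59% of all genes) and none was called higher by limma, edgeR or DESeq2 (against 2.8% of all genes), while 29 of 35 values lay below 0 with a median of -0.46. Over all genes averaging at least 10 normalized counts, the libraries' median log2 counts were 8.14 and 8.14 with Dox against 8.15 and 8.15 without. Of the members' fold changes above 0, 3 had an unadjusted limma p under 0.05, Pfkm (0.36), Slc2a1 (0.20) and Pfkfb1 (0.39). Aldoc fell from 1053 and 1119 to 531 and 523 (log2 fold change -1.04 ± 0.080 (SE), limma adjusted p = 6.98e-08), Pdk2 from 203 and 256 to 111 and 95.6 (log2 fold change -1.14 ± 0.18 (SE), limma adjusted p = 1.63e-04) and Pgam2 from 73.5 and 69.3 to 15.8 and 37.1 (log2 fold change -1.52 ± 0.30 (SE), limma adjusted p = 0.00119). Each call was lost without 1 library: without replicate 2 of the group without Dox, Aldoc (-0.998) and Pdk2 (-0.977) missed the threshold, and without Dox replicate 1 Pgam2 did (-0.926). Without that first library the count was 1. When only the groups compared were fitted, Pdk2 (limma adjusted p = 0.0813) and Pgam2 (limma adjusted p = 0.242) were uncalled, which also left 1. At a threshold of 0.6 in place of 1 the count was 11. Ldhb (-0.20), Slc16a1 (-0.12), Eno3 (-0.50) and Pdk4 (-0.34), which moved with the other factors, were uncalled, as was Pfkp (-0.67).

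**Figure D4:**
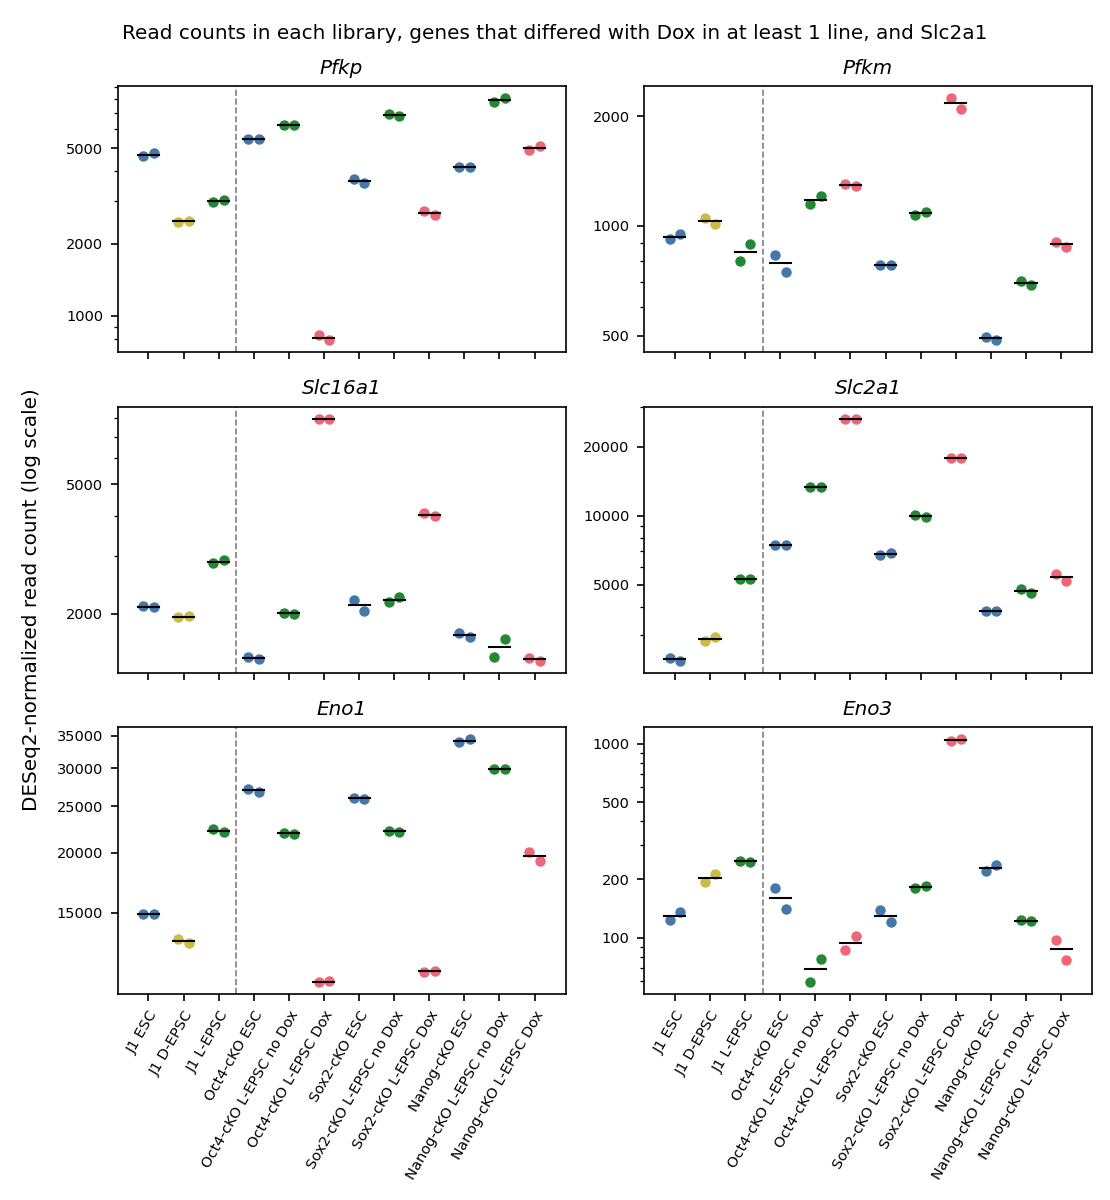
Normalized read counts (log scale) of Pfkp, Pfkm, Slc16a1, Slc2a1, Eno1 and Eno3 in all 24 libraries, as points coloured by state (ESC blue, D-EPSC yellow, L-EPSC without Dox green, with Dox red), with a black bar at the mean of 2 libraries; the dashed line separates the 2 tables. Pfkp is lowest and Slc16a1 highest in Oct4-cKO L-EPSCs with Dox, and Eno3 is highest in Sox2-cKO L-EPSCs with Dox.

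The differences between lines were tested as interactions in the same fit. The conversion effect differed between the Oct4-cKO and Sox2-cKO lines in 9 of the 35 genes (25.7%, against 10% of all genes), between Oct4-cKO and Nanog-cKO in 7 (20%, against 14.7%) and between Sox2-cKO and Nanog-cKO in 9 (25.7%, against 14.8%). Of genes averaging 100 or more normalized counts, 9.96% and 6.91%, 11.8% and 11.2%, and 9.92% and 12.3% were called higher and lower in the same order. The 20% between Oct4-cKO and Nanog-cKO thus did not exceed the share of abundant genes in both directions together. Ldhb rose less with conversion in the Oct4-cKO line than in the Nanog-cKO line (difference of log2 fold changes -2.85 ± 0.042 (SE), limma adjusted p = 1.07e-16). The Dox effect differed between the Oct4-cKO and Sox2-cKO lines in 6 genes (17.1%, against 6.81%), between Oct4-cKO and Nanog-cKO in 8 (22.9%, against 14.8%) and between Sox2-cKO and Nanog-cKO in 6 (17.1%, against 11.3%). For the Dox effect, the shares of abundant genes called higher and lower were 2.06% and 6.02%, 7.7% and 10%, and 6.86% and 6.04% in the same order. Pfkp fell further with Oct4 loss than with Sox2 loss (difference of log2 fold changes -1.59 ± 0.046 (SE), limma adjusted p = 6.39e-13), and Slc16a1 rose further (difference of log2 fold changes 1.11 ± 0.071 (SE), limma adjusted p = 7.46e-09). Eno3 responded more to Sox2 loss than to Oct4 loss (difference of log2 fold changes -2.05 ± 0.22 (SE), limma adjusted p = 2.96e-06). For Pdk4 and Pfkfb2, the Dox effects of the Oct4-cKO and Sox2-cKO lines were not called different (difference -0.78 ± 0.17 (SE), limma adjusted p = 0.00223 for Pdk4 and difference -0.024 ± 0.18 (SE), limma adjusted p = 0.991 for Pfkfb2).

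Isozyme composition was compared as each gene's share of its set, after division by the length of its annotated exons. Ldhb made up 9.98% ± 0.32 (SD, n = 2) of lactate dehydrogenase RNA in J1 ESCs, 55.6% ± 0.12 in D-EPSCs and 7.69% ± 0.52 in L-EPSCs. In tet-off ESCs, L-EPSCs and L-EPSCs with Dox its share was 27.9% ± 0.16, 33.2% ± 0.92 and 8.43% ± 0.22 in the Oct4-cKO line, 40.2% ± 0.75, 50.7% ± 0.38 and 22% ± 0.66 in the Sox2-cKO line, and 10.5% ± 0.024, 57.4% ± 0.68 and 66.8% ± 1.3 in the Nanog-cKO line. The Ldhb share was lower with Dox in the Oct4-cKO and Sox2-cKO lines and higher with Dox in the Nanog-cKO line, with no overlap of libraries. Both subunits were lower with Dox in the Nanog-cKO line, Ldha more so. Mean normalized counts per kb went from 6263 to 3639 for Ldha and from 8426 to 7325 for Ldhb. Which subunit leads depends on the length used: per longest coding transcript, an alternative chosen after seeing the data, Ldhb held 47.2% in J1 D-EPSCs and 49.0% in Nanog-cKO L-EPSCs.

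Pdk1 made up 27.2% ± 1.5 of kinase RNA in J1 ESCs and 73.5% ± 0.87 in J1 L-EPSCs, but 64.5% ± 0.70 in Oct4-cKO ESCs and 29.9% ± 0.68 in their L-EPSCs without Dox. Pdk4 held 24.3% ± 1.6, 21.9% ± 2.0 and 19.3% ± 0.23 in the L-EPSCs without Dox of the Oct4-cKO, Sox2-cKO and Nanog-cKO lines, against 1.42% ± 0.33 in J1 L-EPSCs. Pfkp held 28.9% ± 0.26 of phosphofructokinase RNA in Oct4-cKO L-EPSCs and 8.05% ± 0.52 after Dox, while Pfkm went from 16.7% ± 0.75 to 39.5% ± 1.5. Eno3 held 2.53% ± 0.046 of enolase RNA in Sox2-cKO L-EPSCs and 22.4% ± 0.24 after Dox. These shares also depend on the length used. Per longest coding transcript they were 44.4% and 15.0% for Pfkp, 12.0% and 34.3% for Pfkm, and 1.05% and 10.6% for Eno3. Aldoa (97.7% to 99.3% by group) and Pgam1 (92.1% to 99.6%) made up nearly all of their sets throughout.

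**Figure D5:**
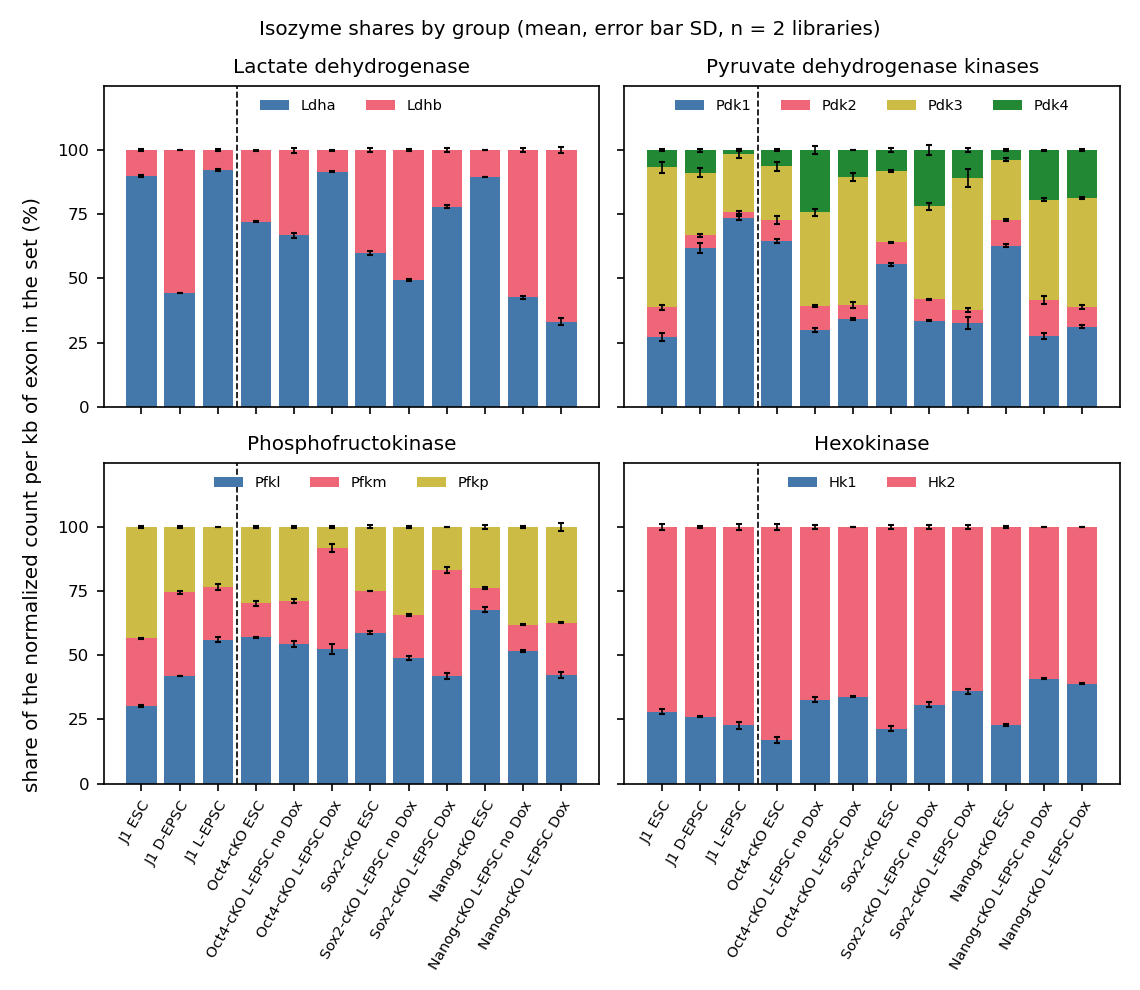
Share of each isozyme in the lactate dehydrogenase, pyruvate dehydrogenase kinase, phosphofructokinase and hexokinase sets, in percent of the set's normalized count per kb of annotated exon, as stacked bars by group (mean of 2 libraries, error bars SD); the dashed line separates J1 from the tet-off lines. Ldhb takes 55.6% in J1 D-EPSCs and 57.4% in Nanog-cKO L-EPSCs without Dox, and Pfkp shrinks to 8.05% in Oct4-cKO L-EPSCs with Dox.

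Copies elsewhere in the genome limit some counts. Transcripts of 12 of the 35 genes aligned outside their own gene over at least 50% of their length at 90% identity or more (build NCBIM37), with 122 such places for Gapdh, 7 for Ldha, 6 for Eno1, 5 for Aldoa, 3 each for Pgam1 and Pkm and 1 or 2 for Gpi1, Tpi1, Pgk1, Ldhb, Pdhb and Bnip3. Annotated copies held 1.73% as many normalized counts as Gapdh for J1 and 0.643% for the tet-off lines, and under 1% for every other gene but Eno1. The copies of Eno1 held 21.4% and 16.3%, nearly all on Eno1b. Eno1b made up 15.8% to 16.8% of the sum of Eno1 and Eno1b in the J1 libraries, 15.5% to 18.3% in the Oct4-cKO and Sox2-cKO libraries, and 7.6% to 8.19% in the 6 Nanog-cKO libraries. The Nanog-cKO libraries thus lay below all others in each medium and with Dox. With Oct4 loss Eno1b went from 4201 and 4311 to 2416 and 2383 normalized counts, and the sum of both from 26157 and 26193 to 13188 and 13158. How reads that match several places were counted is not given in the sources used here, so levels of Eno1 and Gapdh are uncertain. Gene counts do not separate the splice forms of Pkm.

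Of the 35 genes, 31 were called in at least 1 of the 9 comparisons (110 of 315 values), and 4 in none. The share of all genes called in at least 1 comparison was not computed, so these counts do not set the members apart from other genes. Pkm, pyruvate kinase, the last step before pyruvate, ranged from 26242 to 39320.2 normalized counts in J1 and from 25240.5 to 52449 in the tet-off lines, with log2 fold changes of -0.98 to 0.56. Pgam1, the main phosphoglycerate mutase, ranged from 3054 to 4167 normalized counts in J1 and from 2728 to 5885 in the tet-off lines, with log2 fold changes of -0.82 to 0.38. Pdhb, a subunit of pyruvate dehydrogenase, ranged from 1219.8 to 1450.4 normalized counts in J1 and from 1087 to 1388 in the tet-off lines, with log2 fold changes of -0.32 to 0.22. Pfkfb1, another of the bifunctional regulators, ranged from 86.2 to 124 normalized counts in J1 and from 119 to 317 in the tet-off lines, with log2 fold changes of -0.49 to 0.76. Pgam2 was the member with the fewest reads, at 3.92 to 26.1 normalized counts in the J1 libraries, where it was called in no comparison.

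Genes of neighbouring pathways were counted from lists, each count with its share of the list and the share of all genes called in that direction. Of 20 genes of the TCA cycle, conversion called 4 higher (20%, against 13%) in the Oct4-cKO line, 3 higher (15%, against 7.99%) in Sox2-cKO and 3 higher (15%, against 12.2%) in Nanog-cKO, and J1 L-EPSCs against ESCs had 2 lower (10%, against 11.5%). The Nanog-cKO share was close to that of all genes. All 20 averaged 100 or more normalized counts in every group. Of genes that abundant, 20%, 11.2% and 18.8% were called higher in the Oct4-cKO, Sox2-cKO and Nanog-cKO conversions. The Oct4-cKO share thus equalled that of abundant genes, and the Nanog-cKO share lay below it. Idh1, the cytosolic isocitrate dehydrogenase, fell in J1 D-EPSCs and L-EPSCs (log2 fold change -1.25 and -0.97) and rose in the Oct4-cKO and Sox2-cKO conversions (1.02 and 1.08). Suclg2, a subunit of succinyl-CoA synthetase, rose in all 3 conversions (0.86, 1.14 and 0.96). Of 11 genes of the pentose phosphate pathway, J1 L-EPSCs against ESCs had 1 higher (9.09%, against 8.8%) and 2 lower (18.2%, against 11.5%), and the Nanog-cKO conversion had 5 higher (45.5%, against 12.2%) and 2 lower (18.2%, against 14.7%). Prps2, which makes phosphoribosyl pyrophosphate, rose in J1 D-EPSCs and L-EPSCs (log2 fold change 3.04 and 2.90), and its paralog Prps1 fell with Dox in the Oct4-cKO and Sox2-cKO lines (-2.05 and -2.20).

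Of 38 other genes of glycolysis, pyruvate use and gluconeogenesis, 34 were tested in J1 and 36 in the tet-off lines. J1 D-EPSCs against ESCs had 3 higher (8.82%, against 10.8%) and 10 lower (29.4%, against 9.98%), and J1 L-EPSCs 4 higher (11.8%, against 8.8%) and 7 lower (20.6%, against 11.5%). The shares higher were close to those of all genes in both. Conversion called 11 higher (30.6%, against 13%) and 4 lower (11.1%, against 15.4%) in the Oct4-cKO line, 9 higher (25%, against 7.99%) and 1 lower (2.78%, against 11.6%) in Sox2-cKO and 11 higher (30.6%, against 12.2%) and 7 lower (19.4%, against 14.7%) in Nanog-cKO. Dox called 4 higher (11.1%, against 8.53%) and 8 lower (22.2%, against 10.8%) in the Oct4-cKO line, 1 higher (2.78%, against 7.79%) and 3 lower (8.33%, against 7.32%) in Sox2-cKO and 1 higher (2.78%, against 2.8%) and 1 lower (2.78%, against 2.59%) in Nanog-cKO. Me1, the cytosolic malic enzyme, fell in J1 D-EPSCs (log2 fold change -2.21) and rose in the conversions of all 3 lines, Oct4-cKO, Sox2-cKO and Nanog-cKO (2.70, 2.07 and 1.07). Bsg, the chaperone of the lactate transporters, rose in the same conversions (1.76, 1.30 and 1.07). Mpc1, a subunit of the mitochondrial pyruvate carrier, fell in J1 D-EPSCs (-1.68) and was higher in J1 L-EPSCs than in D-EPSCs (1.55).

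Of 29 tested genes of the HIF pathway and its targets outside glycolysis, 1 higher (3.45%, against 10.8%) and 15 lower (51.7%, against 9.98%) were called for J1 D-EPSCs against ESCs. For J1 L-EPSCs against ESCs these were 3 higher (10.3%, against 8.8%) and 5 lower (17.2%, against 11.5%), and against D-EPSCs 12 higher (41.4%, against 4.8%) and 1 lower (3.45%, against 8.58%). The conversions called 16 higher (55.2%, against 13%) and 3 lower (10.3%, against 15.4%) in the Oct4-cKO line, 12 higher (41.4%, against 7.99%) and 1 lower (3.45%, against 11.6%) in Sox2-cKO and 13 higher (44.8%, against 12.2%) and 3 lower (10.3%, against 14.7%) in Nanog-cKO. Their median log2 fold change was -0.62 in D-EPSCs against ESCs, where the 35 glycolysis genes had -0.26, and -0.084 in J1 L-EPSCs against ESCs, where the glycolysis genes had 0.16. In the Oct4-cKO, Sox2-cKO and Nanog-cKO conversions their medians were 0.92, 0.43 and 0.47. Vegfa, the vascular growth factor, fell in J1 D-EPSCs and L-EPSCs (log2 fold change -2.58 and -1.31), and Egln3, an oxygen-sensing hydroxylase, rose in J1 L-EPSCs (2.72). P4ha1, a collagen prolyl hydroxylase, rose in the 3 conversions (2.83, 1.78 and 1.76).

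On the map (build NCBIM37), the 9 members with the largest log2 fold changes, by size, in any of the 9 comparisons lay at chr6:142438769-142456477, minus strand (Ldhb), chr2:71711281-71741915, plus strand (Pdk1), chr13:6579014-6648023, minus strand (Pfkp), chr11:70470704-70476015, plus strand (Eno3), chr6:5433351-5446309, minus strand (Pdk4), chr7:146082519-146101202, minus strand (Bnip3), chr11:78136470-78141283, plus strand (Aldoc), chr10:61731603-61842656, minus strand (Hk1) and chr3:104442591-104462385, plus strand (Slc16a1). All are annotated as protein-coding genes, and their counts are of reads on annotated exons.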

How the data were processed

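Gene-level values of 24 RNA-seq libraries (12 groups of 2) were used. Per the study's methods and the submitters' processing notes, reads were trimmed (Trim Galore 0.6.4), aligned (STAR 2.7.9a) to NCBIM37.67 and counted per gene (HTSeq 0.11.2). The deposited signal values are gene counts that the authors divided by DESeq2 size factors (DESeq2 given as 4.1.1). The strand setting is not given in the sources used here. Dividing each column by its smallest step gave whole reads for 100% of values (within 0.1). As the values are normalized, log2(value + 1) was fitted with limma 3.58.1 (R 4.3.3, trend), all groups of a table together, over genes with at least 2 reads, with Benjamini-Hochberg adjustment. That scale understates changes of low genes. edgeR 4.0.16 and DESeq2 1.42.0 on the whole reads, other scalings, filters and libraries left out were alternatives. The limma, edgeR and DESeq2 fits were run on simulated data for a single contrast between groups of each table. Interaction terms and the other alternatives were not.

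The 35 genes and the lists were chosen with earlier results of these data known. All 35 are accounted for, with full statistics for up to 10 called genes per comparison and values for some, not all, of their isozymes. Other lists are given as counts with at most 3 named genes per comparison, the largest called changes among genes averaging 100 or more normalized counts. Copies were found with minimap2 2.31.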

Additional observations from a re-analysis of the deposited data

Results flagged for a closer look

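The effects of conversion and of Dox were compared between lines by interaction terms, and 45 differences in 20 of the 35 genes passed the threshold (limma adjusted p between 1.07e-16 and 0.021, SE of a difference between 0.0247 and 0.429). Positive values mean that the log2 fold change was larger in the first line named. The share of all genes with at least 1 called difference was not computed, and no explanation was tested.

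Conversion differed between the Oct4-cKO and Sox2-cKO lines in 9 genes, with differences of log2 fold changes for Pfkp (-0.71), Aldoc (1.40), Eno3 (-1.70), Slc2a3 (0.86), Pdk3 (0.83), Pdk4 (0.91), Tigar (-0.60), Pfkfb2 (0.74) and Pdha1 (1.05). Between Oct4-cKO and Nanog-cKO it differed in 7, namely Pfkp (-0.73), Eno2 (-1.36), Ldhb (-2.85), Slc16a3 (0.70), Pfkfb2 (0.69), Pfkfb3 (1.28) and Bnip3 (0.87). Between Sox2-cKO and Nanog-cKO it differed in 9, namely Hk1 (-1.05), Aldoc (-1.27), Eno2 (-1.75), Eno3 (1.39), Ldha (0.62), Ldhb (-2.30), Pdk4 (-1.0045), Pfkfb3 (1.35) and Pdha1 (-0.80). Some differences were lost without 1 library. The Tigar difference between Oct4-cKO and Sox2-cKO was uncalled when any 1 of 4 libraries was left out (-0.526 to -0.598). Without Oct4-cKO ESC replicate 2, the Pfkfb2 difference was 0.516 between Oct4-cKO and Sox2-cKO and 0.472 between Oct4-cKO and Nanog-cKO, both uncalled, and the former was also uncalled without Sox2-cKO ESC replicate 1 (limma adjusted p = 0.0648). The Ldha difference between Sox2-cKO and Nanog-cKO was 0.574 and uncalled without Sox2-cKO ESC replicate 1. Ldhb, the heart-type lactate dehydrogenase subunit, and Eno2, the neuronal enolase, rose most in the Nanog-cKO line.

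The Dox effect differed between the Oct4-cKO and Sox2-cKO lines in 6 genes, with differences for Hk1 (-1.05), Pfkp (-1.59), Pgam2 (-1.42), Eno3 (-2.05), Slc16a1 (1.11) and Pfkfb3 (-1.24). Between Oct4-cKO and Nanog-cKO it differed in 8, namely Hk1 (-1.10), Hk2 (-1.29), Pfkp (-2.27), Pgam2 (1.503), Ldhb (-2.56), Slc16a1 (2.10), Pdk4 (-1.56) and Pfkfb2 (-1.51). Between Sox2-cKO and Nanog-cKO it differed in 6, namely Pgam2 (2.92), Eno3 (3.01), Ldhb (-1.71), Pfkfb2 (-1.48), Pfkfb3 (1.19) and Pfkfb4 (1.56). The Hk1 difference between Oct4-cKO and Sox2-cKO was just under the threshold (-0.999) without Sox2-cKO Dox replicate 2. Pgam2 and Pfkfb4 had few reads: the Pgam2 difference between Oct4-cKO and Nanog-cKO was uncalled without Nanog-cKO Dox replicate 1 (0.913) or Oct4-cKO replicate 2 without Dox (limma adjusted p = 0.0557), and its difference between Oct4-cKO and Sox2-cKO was uncalled when any 1 of 7 libraries was left out (limma adjusted p between 0.0576 and 0.0916). The Pfkfb4 difference was uncalled when any 1 of 4 libraries was left out (limma adjusted p between 0.0623 and 0.0753).

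In J1, every L-EPSC library lay above every ESC library for Pdk1 (log2 fold change 3.04) and below for Hk1 (-0.98), while in each tet-off line Pdk1 was lower and Hk1 higher in every L-EPSC library. This difference was not tested, because the tables were normalized separately.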

How the results depend on the processing

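The counts of called genes turned mainly on the fold change threshold. At 1 in place of 0.6 on the log2 scale, the counts were 7 of 35 for D-EPSCs against ESCs (13 at 0.6), 4 for L-EPSCs against ESCs (14), 9 for L-EPSCs against D-EPSCs (15), 11, 7 and 8 for conversion of the Oct4-cKO, Sox2-cKO and Nanog-cKO lines (19, 12 and 15), and 3 for its difference between Oct4-cKO and Sox2-cKO (9) and 3 between Oct4-cKO and Nanog-cKO (7). At 0.6 in place of 1, Dox called 18, 19 and 11 genes in these lines (11, 8 and 3), and its differences 13, 13 and 16 between Oct4-cKO and Sox2-cKO, Oct4-cKO and Nanog-cKO, and Sox2-cKO and Nanog-cKO (6, 8 and 6). Dox in the Nanog-cKO line called 1 gene when only its groups were fitted, and 1 to 4 when libraries were left out in turn, with 1 without replicate 2 of the group without Dox. No other count moved by more than 1.5 times, with edgeR, DESeq2, TMM scaling, median centring, a pseudocount of 0.1, genes averaging at least 10 normalized counts, only the groups compared, or libraries left out (ranges 10 to 12, 13 to 14 and 13 to 15 for the J1 comparisons, 19 to 20, 12 to 13 and 15 to 16 for conversion, and 11 to 12 and 6 to 7 for Dox in the Oct4-cKO and Sox2-cKO lines). A lone library left in a group is assumed to vary like the other groups.

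Over all genes, edgeR on the recovered reads called 1224 (Dox in the Nanog-cKO line) to 6693 (conversion of the Oct4-cKO line) in the 9 comparisons, and limma 1293 and 6822 in those cases. Of 155 called values of single genes, none changed direction. DESeq2, the filter at 10 normalized counts and the block lost 0 of them, edgeR, TMM scaling and the pseudocount 1 each, median centring 3, and the fit of only the groups compared 9. Leaving out libraries lost 45 of 800 values. Median centring moved Pfkm with Dox in the Sox2-cKO line to 0.936, and no cause was tested for any of these losses.

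Replicate numbers are shared between groups in the labels, but same-numbered libraries did not deviate together: the correlation of their deviations from the group means lay between -0.0093 and -0.0013 in J1 and between -0.0279 and 0.0402 in the tet-off lines. With the replicate number as a block, 14 of 15 counts were identical (the other was 14 in place of 13), and all 155 called values kept their call.

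The share of reads on the 35 genes was higher in 5 and lower in 4 of the 9 comparisons, also without Gapdh, Aldoa, Pkm or Eno1. The leading isozyme differed between the compared groups in 20 of 90 cases, in 15 without division by length, and in 26 per longest coding transcript, the last chosen after seeing the data, and the leading gene was the same under both lengths in 97 of 120 sets and groups. With 2 libraries a group, calls near the thresholds and of genes with few reads (Pgam2, Pfkfb4, Pdk2) are the least certain.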
